A study of Mus musculus with 4 samples.

Results

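The genes described here are the 10 mouse ligands of the VEGF, angiopoietin and PDGF families: Vegfa, Vegfb, Vegfc, Pgf, Angpt1, Angpt2, Pdgfa, Pdgfb, Pdgfc and Pdgfd. They were chosen by gene name and all 10 were found among the 23475 genes of the joined count tables. The data are mRNA sequencing counts from 4 libraries of astrocytes, isolated from mouse cerebral cortex at postnatal day 5. The 2 WT libraries are taken to be those of PD1fl/fl mice, which carry a floxed PD-1 gene and are thus not unmodified animals, and the 2 libraries labelled KO those of PD1cKO-Cx3 mice, a conditional deletion of the same gene. PD-1, encoded by Pdcd1, is an inhibitory immune receptor. Which promoter drives the recombinase, which cells it acts in, and whether a library came from 1 animal or a pool are not stated in the labels. The comparison asks what differs in the astrocyte preparation when PD-1 is deleted.

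VEGF ligands are secreted dimers that drive the growth and sprouting of blood and lymphatic vessels through receptor tyrosine kinases on endothelial cells. Angiopoietins act on the endothelial receptor Tek, where Angpt1 stabilises vessels and Angpt2 can oppose it. PDGF ligands recruit pericytes through Pdgfrb and sustain oligodendrocyte precursors through Pdgfra. In the developing cortex, astrocytes, neurons, pericytes and endothelial cells each make some of these ligands, while most of the receptors mark the vessel wall or the precursor cells.

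Promoter sequence was at hand for 7 of the 10 ligands, as RefSeq windows on GRCm38.p6 that run from 250 bases before a transcription start to 50 after it. The windows of Pdgfa and Pdgfc are printed because both genes had their lowest level in the same library, WT replicate 1. Capitals mark GC boxes, searched as GGGCGG on both strands, and both sequences read 5′ to 3′ on the gene's strand.
Pdgfa, chr5:138994895-138995194, minus strand: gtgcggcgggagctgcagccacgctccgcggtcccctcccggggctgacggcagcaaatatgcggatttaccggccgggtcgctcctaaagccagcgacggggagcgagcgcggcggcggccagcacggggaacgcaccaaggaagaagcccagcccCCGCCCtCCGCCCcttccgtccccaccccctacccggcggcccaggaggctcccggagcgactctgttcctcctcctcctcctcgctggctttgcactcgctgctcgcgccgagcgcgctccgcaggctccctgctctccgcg
Pdgfc, chr3:81036166-81036465, plus strand: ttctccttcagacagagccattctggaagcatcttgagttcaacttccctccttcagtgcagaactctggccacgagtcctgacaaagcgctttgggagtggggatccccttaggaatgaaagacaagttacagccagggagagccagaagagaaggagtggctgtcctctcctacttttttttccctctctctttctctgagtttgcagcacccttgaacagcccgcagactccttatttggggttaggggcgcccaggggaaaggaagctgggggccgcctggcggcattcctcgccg
This Pdgfa window, at the more upstream of its RefSeq starts, held 2 GC boxes and 73.3% G or C, and the Pdgfc window held 0 and 55%. Of all 32851 promoter windows, 35.7% held at least 1 GC box. The hypoxia element core, searched as ACGTG or GCGTG on both strands, had 1 match in this Pdgfa window and 0 in that of Pdgfc, against 43.8% of all windows with at least 1. At the upstream start of Vegfa that core had 0 matches, and 2 in the window at its downstream start. Such matches describe the letters only.

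Listed counts summed to between 14224519 and 16961160 per library. The targeted gene could not check the labels: Pdcd1 had 0 counts in both WT libraries but 20 in the one labelled KO 2, and was unlisted in the one labelled KO 1, where at most 4 counts are possible. KO replicate 2 also stood apart in its sex-linked transcripts, with 0 counts of Xist and 2472 of the Y-linked Ddx3y, where the remaining libraries carried 6732 to 8564 of Xist. Summed over 15 astrocyte markers the level was between 7292 and 8317 CPM (counts scaled to a common library size after TMM adjustment), so the labelled cell type was present in all 4 libraries. Markers of oligodendrocyte precursors (10 genes, 5706 to 6597 CPM) and of neurons (13 genes, 2496 to 3173 CPM) were also abundant, so these are mixed preparations. Separate animals are not stated, but by Xist and Ddx3y KO replicates 1 and 2 differed in sex and so held different animals. Both WT libraries carried Xist, so sex is not balanced between the groups. Its part in the spread of the libraries labelled KO was not tested. A p-value here reflects the spread between libraries, which may in part be technical.

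Scaled to exon length, Pdgfa and Angpt1 were the most abundant of the ligands, with medians over the 4 libraries of 6.54 and 6.18 CPM per kilobase of exon. Pdgfd followed at 4.83, Vegfb at 3.57, Pgf at 2.81 and Pdgfc at 2.21 (length-scaled medians). Vegfa, the founding member of its family, had a median of 1.25, and Pdgfb, Vegfc and Angpt2 lay at 0.913, 0.838 and 0.746 on that scale. Of the neighbours in this order, only Vegfb and Pgf had ranges that did not overlap, the lowest Vegfb value being 3.38 and the highest Pgf value 3.21. All other neighbours overlapped across the 4 libraries. Exon length was the union of all annotated exons, which overstates the length of a gene with several isoforms.

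**Figure D1:**
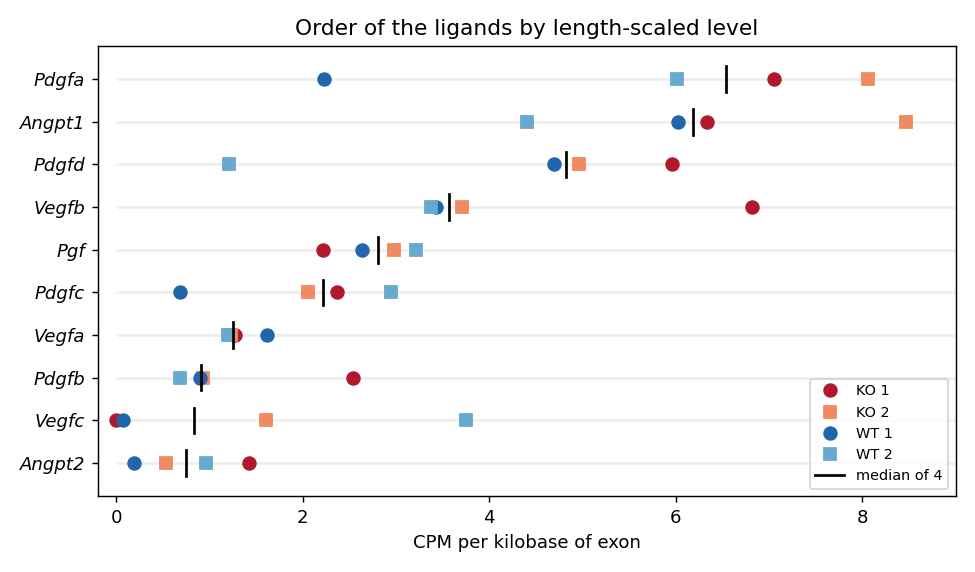
Length-scaled level of each ligand (x axis, CPM per kilobase of exon) with 1 point per library and a vertical bar at the median of 4. Pdgfa and Angpt1 head the order with medians of 6.54 and 6.18, Vegfa sits at 1.25, and Vegfc spreads from 0 to 3.75.

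Between the groups, 0 of the 10 ligands passed the test in either direction (edgeR's quasi-likelihood test at a Benjamini-Hochberg adjusted p under 0.05 over all genes), where 0.017% of the 17696 genes tested were called higher in the libraries labelled KO and 0% lower. The count of ligands was also 0 at an unadjusted p under 0.05, which 5.88% of all genes reached as higher and 2.41% as lower. DESeq2 and limma-voom called 0 ligands, beside 1.78% and 0.141% of all genes higher and 0.356% and 0.017% lower. All 10 ligands passed the low-count filter, 7 had a log2 fold change (KO over WT) above 0 and 3 below, and their median was 0.57, against 0.00 over all genes tested. In 5 ligands, Vegfb, Angpt1, Pdgfa, Pdgfb and Pdgfd, the lower of the libraries labelled KO exceeded the higher WT library, and in 0 ligands the reverse held. Over all genes tested 21.2% were separated upward and 18.4% downward. The 10 ligands together summed to 125 CPM in each library labelled KO and to 81.3 and 96.0 CPM in WT replicates 1 and 2. In these bulk samples fewer cells of a type and less RNA per cell cannot be told apart.

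**Figure D2:**
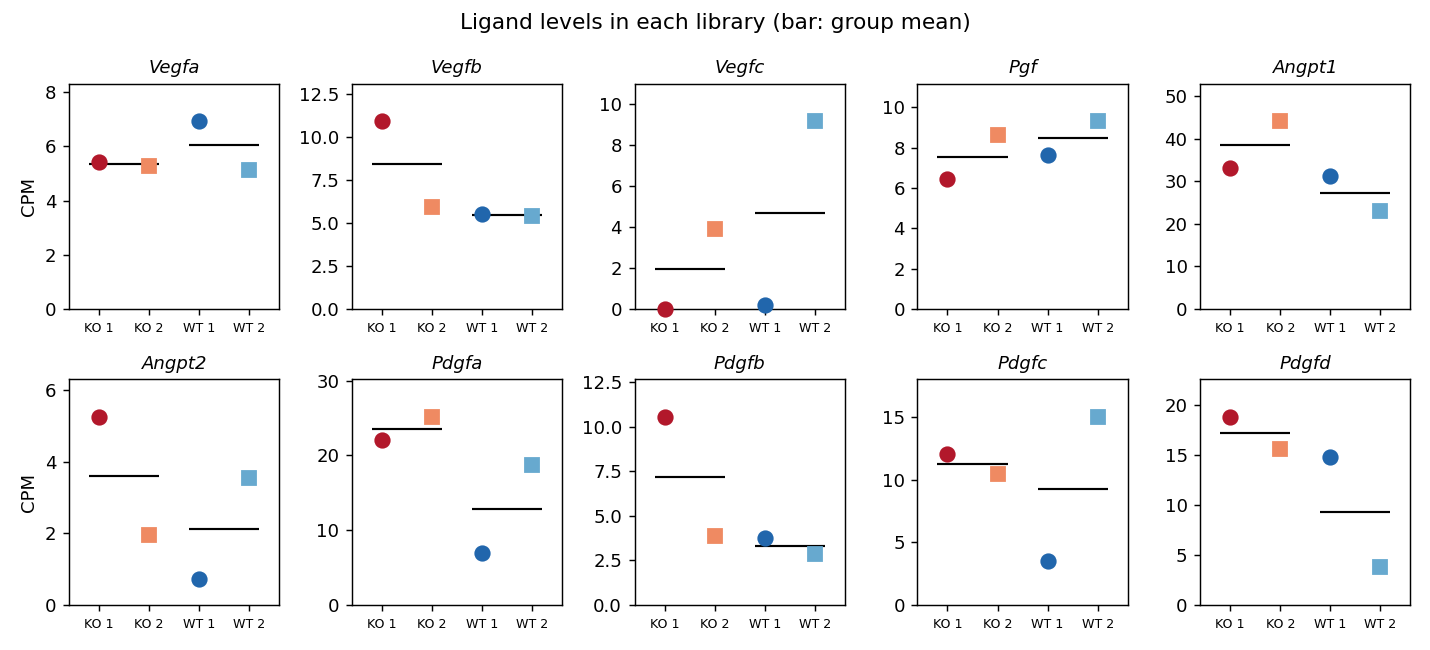
Level of each ligand (y axis, CPM, each panel from 0) in KO replicates 1 and 2 and WT replicates 1 and 2, with a bar at each group's mean. The groups do not overlap in Vegfb, Angpt1, Pdgfa, Pdgfb and Pdgfd, and Vegfc is near 0 in 1 library of each group.

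Among the VEGF ligands, Vegfa (ENSMUSG00000023951, chromosome 17, 46016993 to 46032369, minus strand, GRCm38), which signals through Flt1 and Kdr, had 5.44 and 5.27 CPM in KO replicates 1 and 2 and 6.93 and 5.15 CPM in WT replicates 1 and 2. Of these 4 libraries WT replicate 1 was the highest, and the other WT library was the lowest. Its log2 fold change was -0.17 ± 0.49 (SE; edgeR, adjusted p = 0.98). The estimate lay near 0, but its error leaves room for a change in either direction.

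Vegfb (ENSMUSG00000024962, chromosome 19, 6982473 to 6987651, minus strand), a ligand of Flt1, had 10.9 and 5.95 CPM in the libraries labelled KO, against 5.51 and 5.42 CPM in WT. KO replicate 1 was high and the other 3 libraries lay close together, so the groups were separated only narrowly. Its log2 fold change was 0.63 ± 0.50 (SE; edgeR, adjusted p = 0.85), with 0.12 if KO replicate 1 was left out and 1.00 without KO replicate 2.

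Pgf (ENSMUSG00000004791, chromosome 12, 85166635 to 85177790, minus strand), placental growth factor, which also binds Flt1, had 6.44 and 8.65 CPM in the libraries labelled KO, against 7.64 and 9.32 CPM in WT. The groups overlapped, with a log2 fold change of -0.17 ± 0.42 (SE; edgeR, adjusted p = 0.97).

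Vegfc (ENSMUSG00000031520, chromosome 8, 54077606 to 54187096, plus strand), the lymphatic growth factor that binds Flt4, differed most between libraries of 1 group. It had 0 and 64 counts in KO replicates 1 and 2 and 3 and 132 counts in WT replicates 1 and 2. That is 3.93 CPM in KO replicate 2 (exact 95% binomial interval 3.02 to 5.01) and 9.18 CPM in WT replicate 2 (7.68 to 10.9), against 0.178 CPM in WT replicate 1 (0.0367 to 0.519). The 0 of KO replicate 1 allows up to 0.2305 CPM by the same kind of interval. Each group thus held 1 library with and 1 library nearly without Vegfc, a gap far beyond counting error, which is all these intervals cover. The log2 fold change of -1.25 ± 2.16 (SE; edgeR, adjusted p = 0.96) rests on that spread.

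The makeup of the VEGF ligands varied with these levels. On the length-scaled levels Vegfb made up 66.2% and 38.9% of the summed VEGF ligands in KO replicates 1 and 2 and 44.3% and 29.3% in WT replicates 1 and 2. Vegfa made up between 10.4% and 20.9%, and Vegfc between 0% and 32.5%. Vegfd, an X-linked ligand of Flt4 outside the 10, had 2 and 25 counts in the libraries labelled KO, against 32 and 19 in WT, with a log2 fold change of -0.95 ± 1.40 (SE; edgeR, adjusted p = 0.95). It too was nearly missing from KO replicate 1, at 0.125 CPM (exact 95% binomial interval 0.0151 to 0.451).

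Angpt1 (ENSMUSG00000022309, chromosome 15, 42424727 to 42676977, minus strand), the activating ligand of Tek, had the most counts of the 10. Its level was 33.0 and 44.1 CPM in KO replicates 1 and 2 and 31.3 and 22.9 CPM in WT replicates 1 and 2. The groups did not overlap, but KO replicate 1 and WT replicate 1 were only 0.07 apart on the log2 scale. The group means were 38.5 ± 7.85 CPM and 27.1 ± 5.94 CPM (SD, n = 2 each), a log2 fold change of 0.50 ± 0.28 (SE; edgeR, adjusted p = 0.74). An antisense gene, Gm17473, shares 14.2% of the exon bases of Angpt1, and the sources used here do not say whether counting was stranded.

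Angpt2 (ENSMUSG00000031465, chromosome 8, 18690263 to 18741562, minus strand), a Tek ligand typical of sprouting endothelium, was among the scarcest ligands. It had 84 and 32 counts in the libraries labelled KO and 12 and 51 in WT, or 5.25 and 1.96 CPM and 0.711 and 3.55 CPM. The libraries alternated, with KO replicate 1 highest, WT replicate 2 next and WT replicate 1 lowest. Exact 95% binomial intervals of KO replicate 1 (4.19 to 6.50 CPM) and WT replicate 1 (0.367 to 1.24 CPM) lay far apart, so counting error does not cover the spread. This gave a log2 fold change of 0.76 ± 1.04 (SE; edgeR, adjusted p = 0.94).

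The balance of the angiopoietins also varied within the groups. Length-scaled Angpt1 exceeded Angpt2 by 4.46 and 15.9 times in KO replicates 1 and 2 and by 31.3 and 4.59 times in WT replicates 1 and 2. KO replicate 1 and WT replicate 2 were thus alike in this ratio, and the groups overlapped. Angpt4, the remaining angiopoietin, had 1 and 0 counts in the libraries labelled KO and 8 in WT replicate 1, was unlisted in WT replicate 2, and did not pass the low-count filter.

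All 4 PDGF ligands lay above 0 in log2 fold change (median 0.88), and 3 were separated upward, where 21.2% of all genes tested were. Pdgfa (ENSMUSG00000025856, chromosome 5, 138976014 to 138997370, minus strand), the mitogen of oligodendrocyte precursors, had 22.0 and 25.1 CPM in the libraries labelled KO, against 6.93 and 18.8 CPM in WT. WT replicate 1 was the low library, while WT replicate 2 lay 0.23 and 0.42 below KO replicates 1 and 2 on the log2 scale. The group means were 23.6 ± 2.22 CPM and 12.9 ± 8.37 CPM (SD, n = 2 each), a log2 fold change of 0.88 ± 0.50 (SE; edgeR, adjusted p = 0.74). Leaving out WT replicate 1 gave 0.33, and leaving out WT replicate 2 gave 1.77. Pdgfa shares 26.1% of its exon bases with the antisense gene 6330403L08Rik, which had 43 and 19 counts in the libraries labelled KO and 1 and 44 in WT. That gene too was lowest in WT replicate 1, and without a known strand setting reads of the shared stretch cannot be assigned.

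Pdgfb (ENSMUSG00000000489, chromosome 15, 79995900 to 80014808, minus strand), which endothelial cells release to recruit pericytes, had 10.6 and 3.86 CPM in the libraries labelled KO, against 3.73 and 2.85 CPM in WT. A single library, KO replicate 1, stood above the rest, and KO replicate 2 exceeded WT replicate 1 by 0.05 on the log2 scale. The log2 fold change of 1.13 ± 0.66 (SE; edgeR, adjusted p = 0.76), the highest of the 10 with all libraries, became 0.23 if KO replicate 1 was left out and 1.68 without KO replicate 2. The 16 endothelial markers summed to 617 and 311 CPM in those libraries and to 246 and 68.8 CPM in WT, also highest in KO replicate 1. Pdgfb amounted to 1.71%, 1.24%, 1.51% and 4.15% of that sum in KO replicates 1 and 2 and WT replicates 1 and 2. Their part in the Pdgfb value was not tested.

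Pdgfc (ENSMUSG00000028019, chromosome 3, 81036416 to 81214040, plus strand), a ligand of Pdgfra that must be cut before it can bind, had 12.1 and 10.5 CPM in the libraries labelled KO, against 3.50 and 15.0 CPM in WT. Both the lowest and the highest value came from WT libraries. Its log2 fold change was 0.29 ± 0.69 (SE; edgeR, adjusted p = 0.97).

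Pdgfd (ENSMUSG00000032006, chromosome 9, 6168584 to 6378850, plus strand), a ligand of Pdgfrb that is likewise cut before binding, had 18.8 and 15.6 CPM in the libraries labelled KO, against 14.8 and 3.82 CPM in WT. Here WT replicate 2 was the low library and the other 3 lay close together, KO replicate 2 being 0.08 above WT replicate 1 on the log2 scale. The log2 fold change was 0.88 ± 0.64 (SE; edgeR, adjusted p = 0.83). Leaving out WT replicate 2 gave 0.22, and leaving out WT replicate 1 gave 2.17, where the adjusted p was 0.13. Length-scaled Pdgfa exceeded Pdgfb by 2.78 and 8.68 times in the libraries labelled KO and by 2.48 and 8.79 times in WT, so this ratio split each group in the same way.

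The low and high values fell on different libraries for different ligands. WT replicate 2 was the lowest library for 5 ligands (Angpt1, Pdgfb, Pdgfd, Vegfa and Vegfb), WT replicate 1 for 3 (Angpt2, Pdgfa and Pdgfc), KO replicate 1 for 2 (Pgf and Vegfc) and KO replicate 2 for 0. WT replicate 2 was also the highest library for Pdgfc, Pgf and Vegfc. Set pair by pair, 7 of the 10 ligands were higher in KO replicate 1 than in WT replicate 1 and 7 than in WT replicate 2. KO replicate 2 exceeded WT replicate 1 in 9 ligands and WT replicate 2 in 6. These pairs share libraries and are not independent of each other.

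The same split shows in the authors' deposited tables, which compare 1 library with 1 library and so speak of those libraries, not of the groups. Against WT replicate 1, the authors' deposited table of KO replicate 1 labelled 4 ligands significantly higher (Angpt2, Pdgfa, Pdgfb and Pdgfc), where 16.6% of its genes were labelled higher. In the authors' deposited table of KO replicate 2 against WT replicate 1 those labels were on Angpt2, Pdgfa, Pdgfc and Vegfc (17.9% of genes). Neither table labelled a ligand lower (13.1% and 9.71% of genes). Against WT replicate 2, the authors' deposited table of KO replicate 1 labelled Pdgfb and Pdgfd higher (18.1% of genes) and Vegfc lower (13.4% of genes). The authors' deposited table of KO replicate 2 against that library labelled Pdgfd higher (19.1% of genes) and Vegfc lower (10.4% of genes). No ligand was labelled higher in all 4 of these tables, and Vegfc was labelled in both directions.

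**Figure D3:**
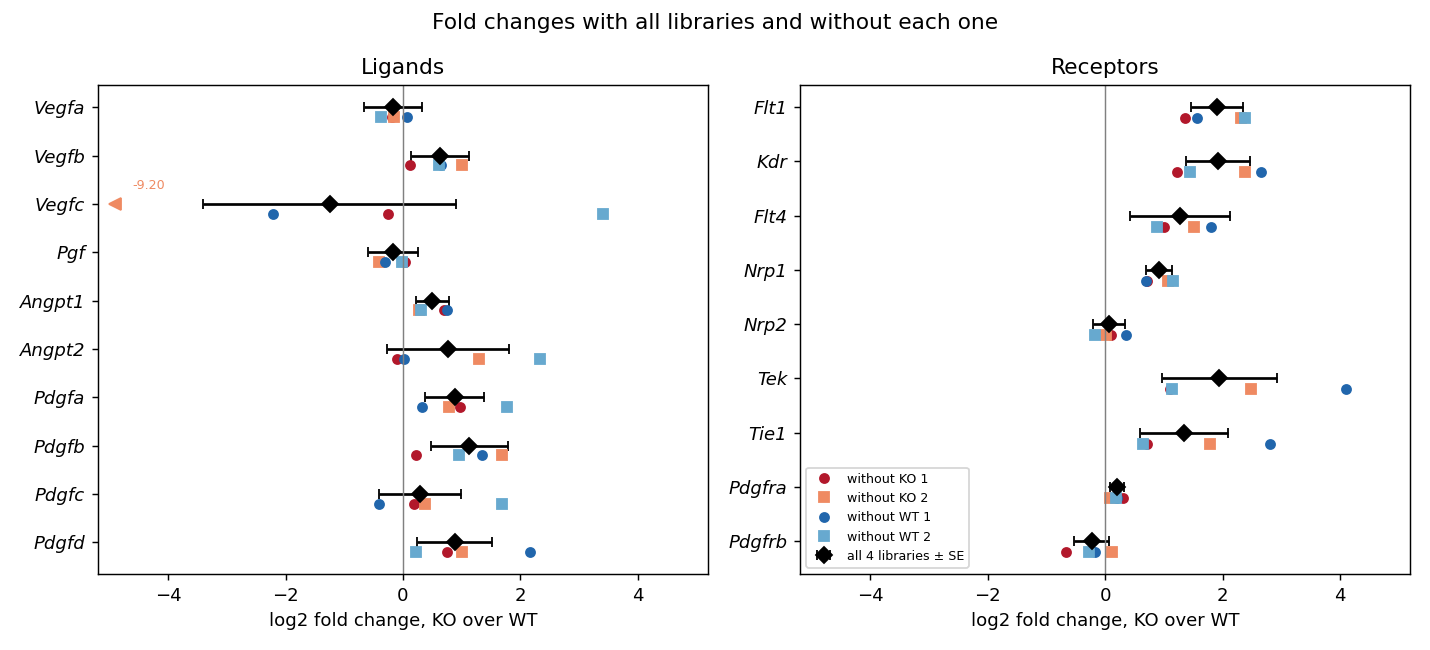
Log2 fold change of KO over WT (x axis) for ligands (left) and receptors (right), as black diamonds ± SE with all 4 libraries and as coloured points with 1 library left out. The Vegfc value without KO replicate 2, -9.20, lies off the axis and is drawn as an arrow; Vegfa, Vegfc, Pgf, Angpt2 and Pdgfc cross 0, as do Nrp2 and Pdgfrb.

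Of the 9 receptors and co-receptors, 8 lay above 0 in log2 fold change (median 1.28), and 7 were separated upward between the groups (21.2% of all genes tested). With edgeR 0 passed over all genes, and 3 had an unadjusted p under 0.05 and were higher, against 5.88% of all genes. The VEGF receptor Flt1 had 60.6 and 31.3 CPM in the libraries labelled KO, against 8.83 and 15.6 CPM in WT. The groups did not overlap, and the log2 fold change was 1.91 ± 0.44 (SE; edgeR, adjusted p = 0.35). DESeq2 called it (adjusted p = 0.0036), as it called 1.78% of all genes higher, while limma-voom did not (adjusted p = 0.27).

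Kdr, the main signalling receptor for VEGF-A, had 93.6 and 41.5 CPM in the libraries labelled KO, against 24.8 and 10.8 CPM in WT. From high to low the libraries were KO replicates 1 and 2 and then WT replicates 1 and 2, which is also the order of the summed endothelial markers. Kdr had a log2 fold change of 1.92 ± 0.54 (SE; edgeR, adjusted p = 0.45, and 0.0065 with DESeq2). Nrp1, a co-receptor of VEGF and semaphorin signalling, had 142 and 111 CPM in the libraries labelled KO, against 57.1 and 78.1 CPM in WT, with a log2 fold change of 0.91 ± 0.22 (SE; edgeR, adjusted p = 0.37, and 0.018 with DESeq2). Its relative Nrp2 had a log2 fold change of 0.06 ± 0.27 (SE). Flt4, the receptor of Vegfc, was scarce, at 3.75 and 2.64 CPM in the libraries labelled KO, against 1.72 and 0.904 CPM in WT (log2 fold change 1.28 ± 0.85 SE).

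The angiopoietin receptor Tek had 20.9 and 8.03 CPM in the libraries labelled KO, against 6.64 and 0.834 CPM in WT, and its relative Tie1 had 27.1 and 12.8 CPM against 12.7 and 2.85 CPM. In both genes KO replicate 2 and WT replicate 1 lay close together, between a high KO replicate 1 and a low WT replicate 2. Their log2 fold changes were 1.94 ± 0.98 and 1.35 ± 0.75 (SE; edgeR, adjusted p = 0.69 and 0.74). Leaving out 1 library moved Tek between 1.10 (without KO replicate 1) and 4.11 (without WT replicate 1), and Tie1 between 0.65 (without WT replicate 2) and 2.80 (without WT replicate 1). Relative to the summed endothelial markers, Tie1 stayed between 4.10% and 5.15% in the 4 libraries, Tek between 1.21% and 3.39%, Kdr between 10.1% and 15.7%, and Flt1 between 3.58% and 22.8%.

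Beside Nrp2, the PDGF receptors had the fold changes nearest to 0. Pdgfra, which marks oligodendrocyte precursors, was the most abundant receptor per length and had 294 and 339 CPM in the libraries labelled KO, against 279 and 274 CPM in WT, a log2 fold change of 0.20 ± 0.12 (SE; edgeR, adjusted p = 0.79). Pdgfrb, the pericyte receptor, had 60.3 and 34.7 CPM against 57.2 and 53.8 CPM, a log2 fold change of -0.23 ± 0.30 (SE; edgeR, adjusted p = 0.94). It was the only one of the 9 receptors below 0, and it stood at 0.12 without KO replicate 2.

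Genes that process the ligands did not pass either. Of 7 tested, 0 passed over all genes in either direction (edgeR, with 0.017% of all genes called higher and 0% lower; 0 also with DESeq2 and limma-voom), 2 were above 0 and 5 below, and the median log2 fold change was -0.11. Plat, which cuts PDGF-C, and the proprotein convertase Pcsk7 were the most abundant, with log2 fold changes of -0.10 ± 0.13 and -0.11 ± 0.18 (SE). Unadjusted, 1 was higher at a p under 0.05, Plau, and 1 lower, Ccbe1, against 5.88% and 2.41% of all genes. Both were chosen after their values were seen. Plau, a protease that cuts PDGF-D, had 41 and 26 counts in the libraries labelled KO and 0 in both WT libraries. It passed the low-count filter only through the libraries labelled KO, so its direction was fixed by the filter. Ccbe1, a cofactor of VEGF-C maturation, had 9.62 and 3.93 CPM in the libraries labelled KO, against 20.3 and 26.3 CPM in WT (edgeR, adjusted p = 0.45).

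The hypoxia response, which induces Vegfa in many tissues, had a median log2 fold change of 0.04 over 21 tested of 22 genes, with 12 above 0 and 9 below. Of these 0 passed over all genes with edgeR (0.017% called higher and 0% lower), DESeq2 or limma-voom. With edgeR 0 had an unadjusted p under 0.05, where 5.88% of all genes were higher and 2.41% lower. Its most abundant members, the glycolytic genes Ldha and Pgk1, had log2 fold changes of 0.03 ± 0.11 and 0.05 ± 0.12 (SE). The endothelial tip cell list, genes of the sprouting vessel front, had 9 tested members, a median of 1.14 and 8 members separated upward (21.2% of all genes). Past the threshold were 0 members in edgeR or limma-voom and 2, both higher, in DESeq2 (1.78% of all genes). In edgeR 5 of them were higher at an unadjusted p under 0.05, against 5.88% of all genes. Nid2, a basement membrane protein, and Apln, the apelin peptide, were its most abundant members, with log2 fold changes of 1.10 ± 0.30 and 1.14 ± 0.50 (SE).

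**Figure D4:**
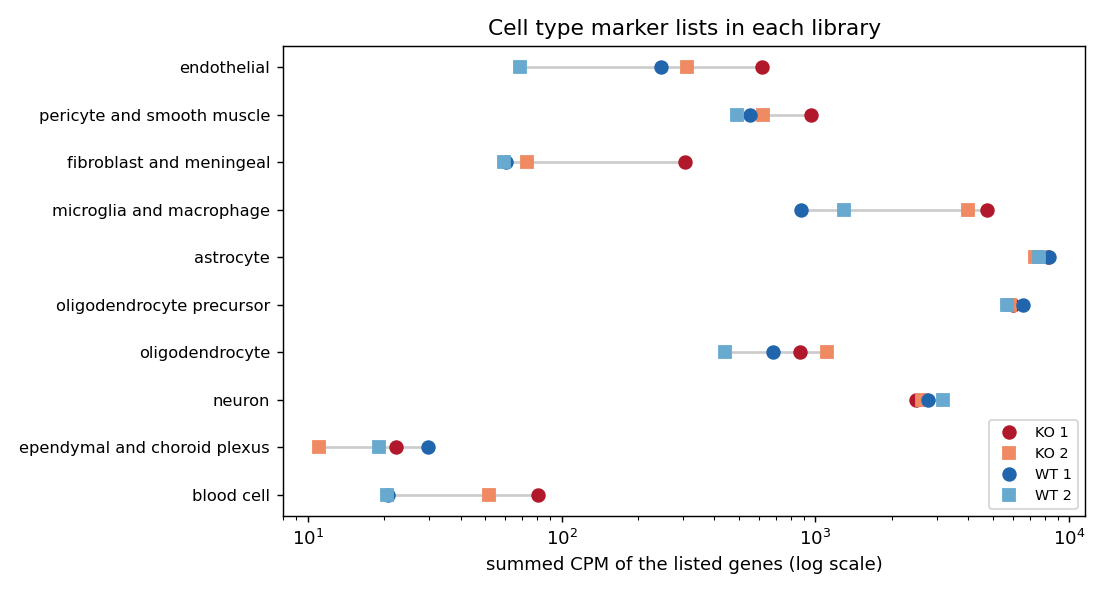
Summed level of each cell type marker list (x axis, CPM on a log scale) with 1 point per library. Endothelial, pericyte, fibroblast, microglia, oligodendrocyte and blood cell lists lie higher in both libraries labelled KO, and the astrocyte and precursor lists stay close together.

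Marker lists of several other cell types had medians above 0, and how many members were called varied with the list and the tool. In the endothelial, pericyte, fibroblast, oligodendrocyte and blood cell lists edgeR and limma-voom called 0 members. DESeq2 called 1, 1, 2, 3 and 1 members higher, against 1.78% of all genes. The endothelial list had 15 of 16 tested members above 0 and 12 separated upward (21.2% of all genes tested), with a median log2 fold change of 1.31. Pericyte and smooth muscle markers summed to 960 and 621 CPM in the libraries labelled KO, against to 555 and 489 CPM in WT, with 9 of 11 tested members above 0 and a median of 0.65. Fibroblast and meningeal markers summed to 305 and 73.2 CPM against 60.3 and 59.2 CPM (8 of 9 above 0, median 1.97). This sum was far the highest in KO replicate 1, with KO replicate 2 only a little above WT. Microglia and macrophage markers summed to 4749 and 3987 CPM against 881 and 1291 CPM, with 16 of 16 above 0 and a median of 1.89. Of the 16, edgeR called 1 higher, P2ry12 (0.017% of all genes), limma-voom 6 (0.141%) and DESeq2 12 (1.78%). No gene found for these lists was at 0 in all 4 libraries, and the part of these cells in the ligand values was not tested. Oligodendrocyte markers had a median of 0.85 (8 of 8 above 0) and blood cell markers 1.77 (4 of 4 above 0). Separated upward were 15 of 16 microglial, 6 of 11 pericyte, 5 of 9 fibroblast, 6 of 8 oligodendrocyte and 4 of 4 blood cell markers (21.2% of all genes). Of the 12 blood cell genes listed, 7 were found and 4 tested. Some separated members, such as Pf4, Foxc1 and Aldh1a2, passed the low-count filter only through the libraries labelled KO. Their upward direction was thus all but fixed by the filter, and they add nothing to these counts. Of the pericyte markers 1 was separated downward (18.4% of all genes). The astrocyte, oligodendrocyte precursor, neuron, and ependymal and choroid plexus lists had medians of -0.04, 0.13, -0.15 and 0.24. Of these last 4 lists edgeR and limma-voom called 0 members. DESeq2 called 2 precursor markers higher (1.78% of all genes) and 2 neuron markers lower (0.356%). Separated downward were 3 of 15, 2 of 10, 5 of 13 and 2 of 5 tested members in that order (18.4% of all genes). Separated upward were 1, 3, 2 and 1 (21.2%). The last of these, Clic6, passed the low-count filter only through the libraries labelled KO.

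The most abundant markers gave these log2 fold changes. They were 1.99 and 1.16 for the endothelial Cldn5 and Eng and 1.53 and 1.01 for the fibroblast collagens Col3a1 and Col1a2. Rgs5 and Cspg4 of the pericyte and smooth muscle list had 0.76 and 0.66. A place on a list does not show that only that cell type made the transcript. The log2 fold changes were 1.90 and 2.31 for the microglial Csf1r and Cx3cr1, 0.85 for the myelin gene Mbp, and 1.89 and 1.21 for the blood genes Hba-a1 and Alas2. They were -0.07 and 0.04 for the astrocyte genes Slc1a3 and Aqp4, -0.22 and 0.16 for Ptprz1 and Olig1, -0.20 and -0.13 for the neuronal Map2 and Dcx, and -1.33 and -1.15 for the ciliary genes Foxj1 and Ccdc153.

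Each ligand was also set beside the 112 marker and receptor genes with a mean of at least 1 CPM, by the root mean square difference of log2 levels centred on each gene's own mean. Before the log 0.5 CPM was added to each level, which shrinks differences among low levels. With 4 libraries this is a description of shared highs and lows only. Vegfa lay nearest to the astrocyte genes Slc4a4 and Fgfr3 (0.09 each) and Pgf to the neuronal Syt1 and Dcx (0.08 and 0.11). Pdgfb lay nearest to the pericyte genes Kcnj8 and Vtn (0.14 and 0.16) and Angpt2 to Abcc9 and Anpep (0.20 and 0.43), also pericyte genes. Angpt1 lay nearest to Matn4 and Cnp of the oligodendrocyte lineage (0.16 and 0.17), Pdgfd to the fibroblast Pi16 and the endothelial Ramp2 (0.15 and 0.21), and Vegfb to the neuronal Nrgn and the pericyte Rgs5 (0.11 and 0.13). Pdgfa had Alas2 and Higd1b at 0.30 each, and Pdgfc had Slc17a7 and Olig2 at 0.28 and 0.32. Among these 112 genes Vegfc had no near neighbour, its closest being the neuronal Slc17a7 at 1.35 and Neurod6 at 1.52. The tip cell list was not part of the 112. Its member Esm1, named here after its values were seen, had highs and lows in the same libraries as Vegfc. Esm1 had 0 and 20 counts in KO replicates 1 and 2 and 0 and 61 in WT replicates 1 and 2. The median difference over the 112 genes was between 0.55 and 0.92 for the other 9 ligands and 2.06 for Vegfc.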

How the data were processed

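The authors deposited 4 tables, each of 1 library labelled KO and 1 WT library, with whole-number counts per gene per the file headers. The authors' deposited normalized columns are CPM (counts scaled to the library total), with a count of 0 replaced by 0.5; they were not used. The authors' deposited fold ratio, log2 fold change, p-value and adjusted p-value columns compare 2 single libraries. In all tables a gene was labelled significant where the log2 fold change reached 1 in either direction with p under 0.05, and the tables served here only for those labels. Bowtie2 2.2.3, TopHat2 2.0.12, HTSeq 0.6.0 and mm9 are named by the submitters' processing notes, with no roles; 90.6% of the gene positions matched GENCODE M21 on GRCm38, which is therefore the build given.

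Tables were joined by gene. Counts missing from all tables, at most 4, were set to 0. Groups were compared with edgeR 4.0.16 in R 4.3.3 (TMM, filterByExpr with a minimum count of 10, quasi-likelihood test with 2 residual degrees of freedom, Benjamini-Hochberg over 17696 genes, threshold 0.05). The code was tested on simulated counts with a dispersion (spread beyond counting error) of 0.05, below the common value of 0.204 fitted here. Standard errors are the absolute log2 fold change over the root of F. CPM here rest on TMM-scaled library sizes, and exon lengths are from GENCODE M21. Alternatives were DESeq2 1.42.0, limma-voom (limma 3.58.1), other scalings, filters and thresholds, a replicate block, unlisted counts at 4, and leaving out each library. Named genes were the ligands, the receptors, the 2 most abundant or any called members of each list, and the 2 nearest marker or receptor genes; the values of 1 of these are not reported here. The members and lists were chosen with earlier results of these data known.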

Additional observations from a re-analysis of the deposited data

How the results depend on the processing

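Ligand counts lay between 0 and 719 per library, with 2 libraries a group, which limits the precision. No ligand was called under any of the 13 alternatives, the smallest adjusted p being 0.13 (edgeR, Pdgfd without WT replicate 1). Directions of the 10 ligands held in all 88 values from other settings, while 5 of 40 reversed when 1 library was left out. The other settings were tools, scalings, filters, the threshold, the replicate block and unlisted counts. A changed threshold uses the main fit, so its values among the 88 could not differ in direction. No ligand was unlisted in any library, and raising the unlisted counts left every ligand's fold change as in the main fit. Values from the threshold and the unlisted counts thus add no support for the directions. Of the receptors, Flt1, Kdr and Nrp1 were called with DESeq2 and under no other alternative.

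Over all genes, the 3 higher and 0 lower calls became 315 and 63 with DESeq2, 25 and 3 with limma-voom, 52 and 4 with no filter, 63 and 5 over genes with a mean CPM from 5 upward, and 14 and 1 at a threshold of 0.1. Leaving out 1 library gave between 0 (without KO replicate 2) and 41 (without WT replicate 2) higher and between 0 and 1 lower. Ligands with groups apart downward, 0 with all libraries, numbered 0 to 3 when 1 library was left out, and those apart upward 5 to 7. Groups separate more easily when 1 of them holds a lone library. The share over all genes was not computed for these fits, and the shares given above for all libraries are no background for them. Leaving out each library in turn, the log2 fold change ran from -0.37 to 0.06 for Vegfa, -9.20 to 3.41 for Vegfc, -0.40 to 0.03 for Pgf, -0.11 to 2.33 for Angpt2, -0.41 to 1.69 for Pdgfc, -0.18 to 0.35 for Nrp2 and -0.67 to 0.12 for Pdgfrb, and the cause was not tested. Without a change of sign it ran from 0.12 to 1.00 for Vegfb, 0.28 to 0.75 for Angpt1, 0.33 to 1.77 for Pdgfa, 0.23 to 1.68 for Pdgfb, 0.22 to 2.17 for Pdgfd, 1.36 to 2.38 for Flt1, 1.22 to 2.65 for Kdr, 0.89 to 1.81 for Flt4, 0.70 to 1.15 for Nrp1, 0.09 to 0.30 for Pdgfra and -3.61 to -0.07 for Vegfd. The -9.20 of Vegfc was fitted against a lone library with 0 counts, depends on the prior count and is no bound. The lone library of a group is then assumed to vary like the other group.

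With the replicate block, 4 genes were called higher and 0 lower, and 0 ligands. The correlation of deviations between same-numbered libraries was 0.0405 over all genes tested. A value over all genes cannot tell whether same-numbered libraries shared a preparation, and the labels give only a number. With that last filter on the mean CPM, Vegfc, Angpt2, Vegfd and Flt4 gave no value.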
